A study of Homo sapiens with 2 samples.

Results

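The suppressor of cytokine signalling (SOCS) family consists of 8 genes in the human genome, SOCS1 to SOCS7 and CISH. They were chosen by name, with earlier results of these data known, from the 20163 protein-coding genes that GENCODE, lifted to GRCh37 (hg19), annotates. All 8 had CpG dinucleotides in the files. Their promoters (the 2000 bp before and after the most upstream transcription start site, TSS) and gene bodies held 3779 of the 28217009 nuclear CpG dinucleotides listed. Of these, 1640 lay in promoters and 2139 in gene bodies outside the promoter window.

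SOCS proteins end cytokine signals. A cytokine bound to its receptor activates JAK kinases, which phosphorylate STAT transcription factors, and STATs then switch on SOCS genes among their targets. Each SOCS protein has an SH2 domain that binds phosphotyrosine and a SOCS box that recruits an elongin and cullin ubiquitin ligase. SOCS1 and SOCS3 also carry a region that inhibits the kinase itself, and CISH and SOCS2 act mainly on signals of growth hormone and related cytokines through STAT5. In myeloid cells these genes restrain the response to interferons and to colony-stimulating factors, and methylation of the SOCS1 and SOCS3 CpG islands is a known event in blood cancers.

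DNA methylation was measured by whole-genome bisulfite sequencing in 2 established human acute myeloid leukemia (AML) cell lines, with 1 library each and no replicates. OCI-AML3 carries a heterozygous missense mutation in DNMT3A, a de novo DNA methyltransferase, and AML5 (named OCI-AML5 in its sample record) is DNMT3A wild type. Both were cultured by the supplier's specifications, with no treatment named. Each group is 1 cell line, so that DNMT3A status and any other difference between these lines cannot be told apart. The question posed by the design was where the DNMT3A mutant line differed in methylation from the wild-type line.

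The deposited tables gave methylated and unmethylated calls per CpG, and the methylation level is the methylated share of calls. Their totals were 902802339 calls for OCI-AML3, a median of 27 per nuclear CpG, and 894828667 for AML5, a median of 30. CpGs read more than 5 times in both lines were compared with a two-sided Fisher's exact test, adjusted by Benjamini–Hochberg over all 24454751 such CpGs. In the whole genome 14.7% of them were lower and 3.86% higher in OCI-AML3 at an adjusted P under 0.05. The test compares these 2 libraries and not DNMT3A mutant with wild-type cells in general. Intervals in the text are Wilson 95% intervals of pooled calls and, like the P-values, cover read sampling only. A read can give calls at several CpGs, so that intervals of pooled calls can be too narrow.

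Stretches in which the methylation of the family differed, and the CISH promoter for comparison, are shown first, in GRCh37 and read 5′ to 3′ on the strand of the gene. In the 4 SOCS stretches the capitals mark the CpG dinucleotides. The SOCS1 stretch, chr16:11348771-11348801 on the minus strand, is coding sequence of exon 2, and it is shown because all 6 of its CpGs were more methylated in OCI-AML3.
SOCS1 exon 2: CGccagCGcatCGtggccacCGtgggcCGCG
Both SOCS3 stretches lie on the minus strand of chromosome 17. The first, chr17:76355441-76355512, is in intron 1, where 10 CpGs were more methylated in OCI-AML3. The second, chr17:76354965-76355176, opens with the start codon in exon 2, and its 18 CpGs were less methylated in OCI-AML3.
SOCS3 intron 1: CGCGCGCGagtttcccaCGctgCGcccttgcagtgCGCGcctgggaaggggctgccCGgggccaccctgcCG
SOCS3 exon 2: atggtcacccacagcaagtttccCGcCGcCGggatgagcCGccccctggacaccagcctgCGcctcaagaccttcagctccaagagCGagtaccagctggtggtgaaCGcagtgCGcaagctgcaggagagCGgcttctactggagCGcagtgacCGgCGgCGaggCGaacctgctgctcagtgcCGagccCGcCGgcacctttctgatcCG
The SOCS5 stretch, chr2:46944161-46944460 on the plus strand, is the part of intron 1 around the CpG with the smallest adjusted P of the family. It held 4 CpGs, a sparse stretch beside the SOCS3 ones.
SOCS5 intron 1: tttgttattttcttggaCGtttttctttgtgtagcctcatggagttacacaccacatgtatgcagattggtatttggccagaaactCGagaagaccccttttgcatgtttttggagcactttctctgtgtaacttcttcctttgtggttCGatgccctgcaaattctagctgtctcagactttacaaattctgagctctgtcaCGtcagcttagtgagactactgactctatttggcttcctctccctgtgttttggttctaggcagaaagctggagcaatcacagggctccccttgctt
In the CISH stretch, chr3:50649206-50649338 on the minus strand and directly upstream of the TSS, capitals mark the letters TTCNNNGAA in place of CpGs. This is the core of the GAS element that STAT dimers bind.
CISH promoter: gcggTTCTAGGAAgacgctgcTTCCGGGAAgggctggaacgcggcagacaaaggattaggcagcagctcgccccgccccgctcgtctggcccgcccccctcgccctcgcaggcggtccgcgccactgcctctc

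The family's promoters were little methylated in both lines. None of the 8 promoter means was lower in OCI-AML3 by over 20 percentage points, the difference needed here to call a promoter, against 8.61% of the 19667 protein-coding promoters with at least 10 CpGs. None was higher by that much either, against 1.79%. In OCI-AML3 7 of 8 promoter means were under 20%, and in AML5 6 of 8 were. The median promoter over all genes had a mean of 30.4% in OCI-AML3 and 37.1% in AML5. The promoter mean was lower in OCI-AML3 in 6 of the 8 SOCS genes, with a median difference of −0.829 percentage points. Over all promoters 84.7% were lower, with a median difference of −4.68 points. By the pooled share of calls in place of the mean over CpGs, 7 of the 8 were lower with a median of −2.81 points, against 86.1% and −6.32 over all promoters. Of 1611 promoter CpGs tested in the family, 67 were lower (4.16%, against 12.7% over all promoters) and 39 were higher (2.42%, against 4.82%). The 67 became 31 without the CpGs of over 3 times the median depth, 16 within 1000 bp of the TSS and 126 around the canonical TSS, and the 39 became 23, 22 and 41.

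Close to the start sites both lines were nearly free of methylation. Within 500 bp of the TSS, 723 of the 730 family CpGs tested had a level under 20% in OCI-AML3 and 725 had one in AML5. Only 1 of these CpGs passed the test as lower and 2 as higher in OCI-AML3. The pooled share of methylated calls there was lowest in OCI-AML3 in SOCS1, with 0.0513% (0.0175 to 0.151) against 0.0530% (0.0145 to 0.193) in AML5. It was highest in OCI-AML3 in SOCS7, with 1.67% (1.35 to 2.07) against 1.53% (1.18 to 1.99), and highest in AML5 in SOCS2, with 0.433% (0.219 to 0.851) against 3.44% (2.57 to 4.61). Most CpGs that passed the test therefore lay farther from the TSS.

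**Figure D1:**
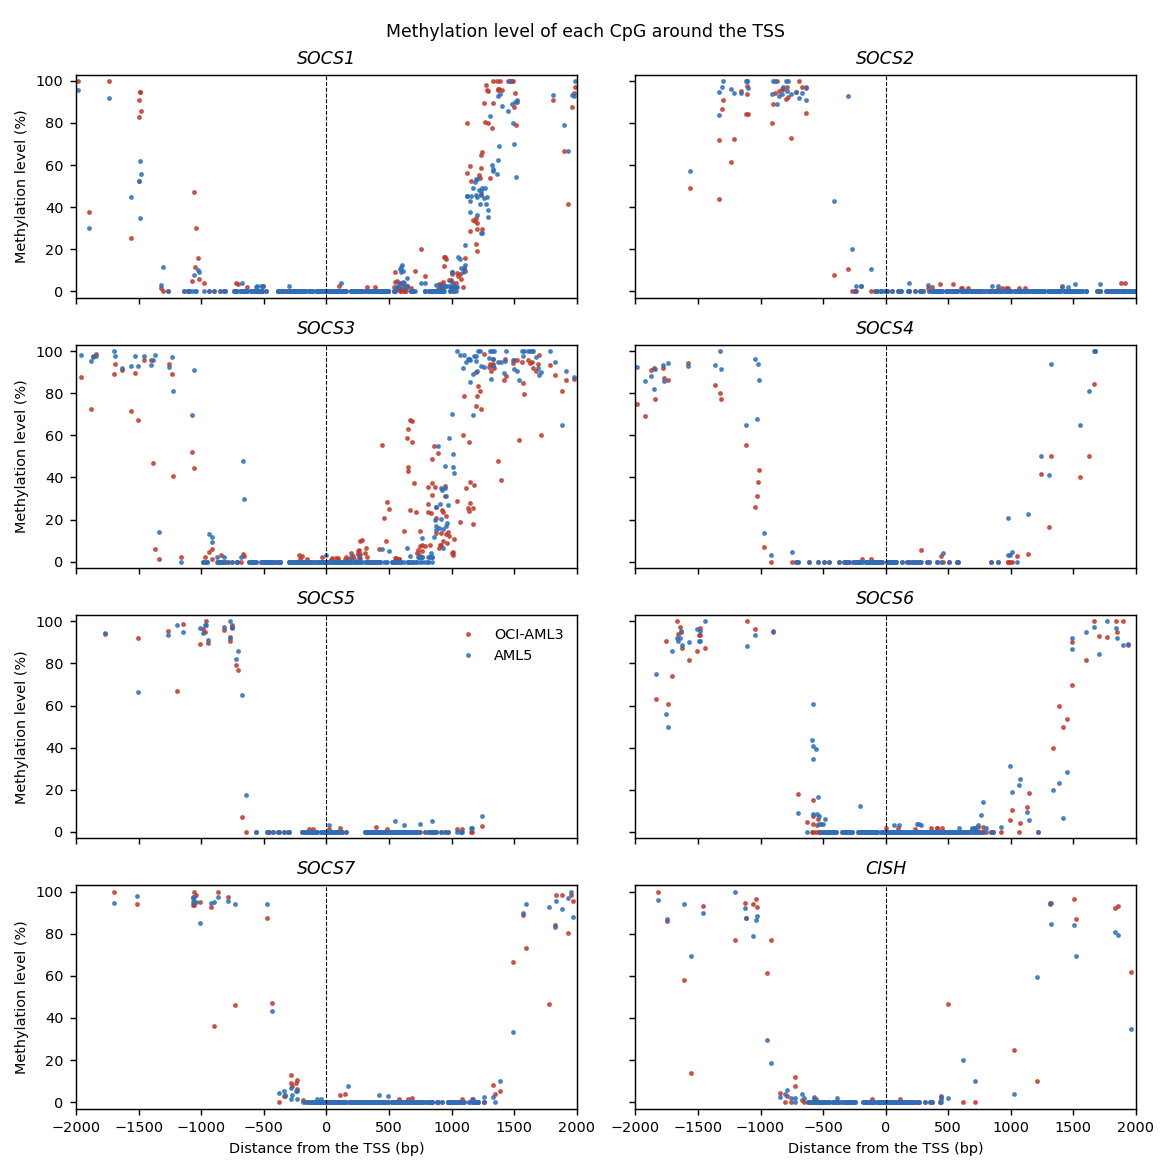
Methylation level (%) of each CpG read more than 5 times in both lines against its distance from the TSS (bp, negative upstream), with 1 panel per SOCS family gene, 1 point per CpG and line, and a dashed line at the TSS. In all 8 panels the points of both lines lie near 0 around the TSS and rise at 1 or both edges, and in SOCS3 the OCI-AML3 points lie above the AML5 points in part of the stretch between 500 and 999 bp.

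The family's promoters differed in CpG density. SOCS1 and SOCS3 had the most CpGs, with 71.5 per kb each, and SOCS4 the fewest, with 26.5 per kb. The ratio of observed to expected CpGs was from 0.387 in CISH to 0.825 in SOCS6, and 7 of the 8 genes were above the median of 0.501 over all promoters. CISH was the only member below it, although the CpGs near its TSS were as free of methylation as those of the others.

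CISH and SOCS2, the members that act mainly on STAT5 signals, had little methylation in the promoter window, like most other members. In SOCS2 this does not hold at the canonical start site, described below. The CISH promoter mean was 13.6% in OCI-AML3 and 12.8% in AML5 over 130 CpGs, but the pooled shares were in the other order, 10.2% (9.57 to 10.9) and 10.7% (9.94 to 11.5), with intervals that overlap. In the 4 bins of 500 bp upstream of its TSS, the levels were 64.4%, 90.9%, 7.73% and 0.0335% in OCI-AML3, from the farthest to the nearest. The same bins in AML5 had 86.7%, 89.1%, 3.27% and 0.0392%. CISH therefore went from methylated to unmethylated between the second and the third bin in both lines. Its window also holds the TSS of MAPKAPK3, a protein kinase gene on the other strand, 254 bp away, so the low methylation cannot be assigned to CISH alone.

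The CISH gene body was the only one of the 7 measured that was more methylated in OCI-AML3. Its mean was 91.3% in OCI-AML3 and 86.7% in AML5 over 56 CpGs, with pooled shares of 93.3% (92.4 to 94.2) and 88.5% (87.1 to 89.8). Of these CpGs 4 were higher and 0 were lower. Exon 1 was at 0.0835% in OCI-AML3 and 0% in AML5, whereas exon 3 was at 91.4% and 89.3%.

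SOCS2 has 5 groups of annotated start sites, and they did not have the same methylation. At the most upstream site, which defines the promoter window, the mean within 500 bp was 0.686% in OCI-AML3 and 4.35% in AML5. The next 2 groups, 585 and 1166 bp downstream, were at 0.268% and 0.104% in OCI-AML3 and at 0.143% and 0.122% in AML5. The start of the canonical transcript, SOCS2-210, lies 2861 bp downstream, and there the means were 57.4% in OCI-AML3 and 82.3% in AML5. At the last group, 5151 bp downstream, they were 92.5% and 95.2%. The lines thus differed most at the canonical start site, which is outside the window of the promoter mean, itself 10.9% in OCI-AML3 and 12.5% in AML5. That window also holds the TSS of SOCS2-AS1, a noncoding RNA gene on the other strand, 1954 bp from the most upstream SOCS2 TSS.

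The SOCS2 CpGs that passed the test lay largely in runs, here at least 5 consecutive tested CpGs that passed in 1 direction with gaps of at most 300 bp. SOCS2 had 4 runs with 46 CpGs in all, and all were lower in OCI-AML3. The 2 longest by CpG number lay in intron 1. The run at chr12:93967225-93967346 had 16 CpGs, with shares of 55.7% (53.0 to 58.4) in OCI-AML3 and 97.3% (95.5 to 98.4) in AML5. The run at chr12:93967061-93967214 had 15 CpGs, with 48.9% (45.9 to 52.0) and 94.5% (92.4 to 96.1). In these 2 runs OCI-AML3 had intermediate levels, between 20% and 80% at all 16 CpGs of the first and 14 of the 15 CpGs of the second. Depth was 80.5 and 69.6 calls per CpG in OCI-AML3 in these runs, against 32.4 and 38.9 in AML5, and its part in the result was not tested. The run with the largest SOCS2 difference lay at the canonical start site instead and was nearly unmethylated in OCI-AML3, with 10.2% (7.25 to 14.1) against 90.5% (86.8 to 93.3) over 10 tested CpGs. Its depth was alike in both lines, with 30.5 and 31.6 calls per CpG.

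In the SOCS2 gene body outside the promoter window, the means of OCI-AML3 and AML5 were 55.1% and 71.2%, a difference of −16.0 points. Of its 228 CpGs tested, 71 were lower and 2 were higher, the largest number of lower body CpGs in the family. By feature of the canonical transcript, the 5′ untranslated region (UTR) was at 50.9% in OCI-AML3 and 92.5% in AML5, intron 1 at 71.5% and 95.2%, and the coding sequence at 82.9% and 96.7%. The 3′ UTR was at 95.5% and 96.7%, so the gap narrowed along the gene.

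SOCS1 and SOCS3, the members with the kinase inhibitory region, had the most promoter CpGs tested, 285 and 286. They also had the most that were higher in OCI-AML3, 16 of 285 and 20 of 286. These shares were somewhat above the 4.82% of CpGs that were higher over all promoters. More CpGs tested can by itself give higher counts, so the counts are not read as a trait of this pair. The SOCS1 promoter mean was 16.3% in OCI-AML3 and 13.4% in AML5 over 285 CpGs, of which 16 were higher and 2 were lower. The pooled shares were 11.9% (11.4 to 12.4) and 11.7% (11.1 to 12.3), and these intervals overlap. The difference of the mean was therefore small, and it came from few sites.

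Of the 16 SOCS1 CpGs that were higher, 11 were in 2 runs, 1 on either side of the unmethylated island. The run in the coding part of exon 2, chr16:11348771-11348801, had shares of 89.9% (85.9 to 92.8) in OCI-AML3 and 42.4% (36.8 to 48.3) in AML5 over 6 CpGs. At chr16:11348789, 52 of 53 calls were methylated in OCI-AML3 and 20 of 48 in AML5 (adjusted P = 3.76e-09, Fisher's exact test). The upstream run, chr16:11351540-11351561, had 5 CpGs with 89.5% (84.5 to 93.0) and 51.4% (44.7 to 58.0). In both runs AML5 was at intermediate levels and OCI-AML3 was nearly fully methylated. The gene RMI2, a component of a DNA repair complex, spans SOCS1 on the other strand and has no TSS in the window.

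Along the SOCS1 gene, exon 1 was at 0.108% in OCI-AML3 and 0.182% in AML5, and intron 1 at 0.726% and 1.35%. The mean of the coding sequence was 23.6% and 18.3%, and 10 of its 82 CpGs were higher against 1 lower, but its pooled shares were 20.4% (19.4 to 21.4) and 20.5% (19.1 to 21.9). The 3′ UTR was at 95.3% and 80.2% over 14 CpGs. The whole gene lies within 2000 bp of its TSS, and SOCS1 has therefore no gene body outside the promoter window.

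SOCS3 had the highest promoter mean of the family in both lines, with 23.6% in OCI-AML3 and 26.6% in AML5 over 286 CpGs. It held most of the family's promoter CpGs that passed the test, with 39 of the 67 lower and 20 of the 39 higher. In the family as a whole 4.16% of promoter CpGs were lower and 2.42% higher, against 12.7% and 4.82% over all promoters. Of the 286 CpGs of SOCS3, 39 were lower, a share close to that over all promoters. The 20 that were higher were a share above the one over all promoters. The SOCS3 promoter depth in OCI-AML3, 77.3 calls per CpG, was also the highest of the family. The mean difference of −2.97 points thus combined changes of both directions in neighbouring stretches, and within 1000 bp of the TSS it was 3.72 points, higher in OCI-AML3. From 500 to 999 bp downstream of the TSS the mean was 22.0% in OCI-AML3 and 10.3% in AML5, and 19 CpGs were higher against 3 lower. From 1000 to 1499 bp it was 59.8% and 90.1%, and 23 CpGs were lower against 0 higher. The window also holds the TSS of SOCS3-DT, a noncoding RNA gene on the other strand, 299 bp from the SOCS3 TSS.

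The stretch of higher methylation was in SOCS3 intron 1, whose mean was 20.5% in OCI-AML3 and 3.56% in AML5. Of its 56 CpGs, 20 were higher and 0 were lower. The run at chr17:76355441-76355512 had shares of 48.0% (44.7 to 51.4) and 0.870% (0.296 to 2.53) over 10 CpGs. At chr17:76355476, 61 of 91 calls were methylated in OCI-AML3 and 0 of 36 in AML5 (adjusted P = 6.48e-12, Fisher's exact test), where the count of 0 allows a share of up to 8.33%. The second run, chr17:76355299-76355324, had 5 CpGs with 39.1% (34.7 to 43.7) and 4.07% (2.16 to 7.56). AML5 was nearly unmethylated at these CpGs and OCI-AML3 was at intermediate levels.

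The stretch of lower methylation lay farther into the gene, from 978 to 1193 bp downstream of the TSS, and took in the start of the protein-coding sequence. The run at chr17:76354965-76355180 had 19 CpGs, the most in any run of the family, with shares of 31.4% (29.7 to 33.2) in OCI-AML3 and 83.7% (81.2 to 85.9) in AML5. At chr17:76355089, 29 of 153 calls were methylated in OCI-AML3 and 58 of 59 in AML5 (adjusted P = 7.91e-26, Fisher's exact test). The SOCS3 coding sequence as a whole was at 65.2% and 91.4%, and 25 of its 47 CpGs were lower. A further run of 5 CpGs in the 3′ UTR, chr17:76353246-76353416, had 36.7% (30.7 to 43.2) and 95.2% (89.8 to 97.8).

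The body of SOCS3 was the only one of the family that was lower by over 20 points, against 7.58% of the 18292 protein-coding gene bodies with at least 10 CpGs. Its mean was 71.5% in OCI-AML3 and 95.7% in AML5, but over 18 CpGs only, of which 7 were lower, and over the whole gene the difference was −4.46 points and did not pass the threshold. None of the 7 SOCS bodies was higher by over 20 points, against 0.541%. SOCS3 also stood out in depth. Its promoter depth was 77.3 calls per CpG for OCI-AML3 and 35.3 for AML5, and the run in exon 2 had 135 and 51.6. Over 1 Mb around the gene the median depth was 60 for OCI-AML3 and 36 for AML5, whereas around the other 7 genes it was 22 to 36 in OCI-AML3. The part of this depth in the SOCS3 result was not tested.

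SOCS4 and SOCS5, a pair of closely related members with long amino-terminal regions, had no run in their promoters. The SOCS4 promoter mean was 15.4% in OCI-AML3 and 20.3% in AML5 over 104 CpGs, with pooled shares of 15.5% (14.5 to 16.6) and 20.98% (19.6 to 22.5). Of these CpGs 8 were lower and 0 were higher. The difference was at the window's edges, with 54.4% against 86.7% from 1500 to 1001 bp upstream and 19.1% against 35.4% from 1000 to 1499 bp downstream. Within 500 bp of its TSS the pooled shares were 0.134% (0.0523 to 0.345) and 0.0530% (0.00936 to 0.300). WDHD1, a DNA replication gene on the other strand, starts 125 bp from the SOCS4 TSS and shares this unmethylated stretch.

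The SOCS4 body was at 89.7% in OCI-AML3 and 95.1% in AML5 over 182 CpGs, of which 7 were lower and 0 higher. Its coding sequence did not take part, with 95.2% in both lines and no CpG past the test. The 3′ UTR was at 82.1% and 96.1%, with 5 of its 27 CpGs lower.

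The SOCS5 promoter mean was 10.6% in OCI-AML3 and 11.4% in AML5 over the 148 of 166 CpGs that could be tested, and the pooled shares were farther apart, 12.1% (11.4 to 12.8) and 14.9% (13.98 to 15.9). Between 1500 and 2000 bp downstream of the TSS, 7 CpGs were listed and 0 could be tested, so the downstream edge is not covered. The noncoding RNA gene LINC01118 starts 12 bp from the SOCS5 TSS and spans the whole of SOCS5 on the same strand. SOCS5 instead held the run with the largest difference of the family, far inside the gene. Its body mean was 86.1% in OCI-AML3 and 92.3% in AML5 over 523 CpGs, a smaller difference than in SOCS2 and SOCS3. Of these CpGs 47 were lower and 1 was higher, while over all gene bodies 13.0% were lower and 3.02% higher.

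A run of 14 of the SOCS5 body CpGs lay in intron 1 at chr2:46943998-46945100, from 17907 to 19009 bp downstream of the TSS. Its pooled share was 4.05% (2.51 to 6.48) in OCI-AML3 and 94.7% (92.7 to 96.2) in AML5, the largest difference of any run in the family. At chr2:46944310, 0 of 63 calls were methylated in OCI-AML3 and 73 of 74 in AML5 (adjusted P = 5.33e-35, Fisher's exact test), and a count of 0 there allows a share of up to 4.76%. Depth in this run was lower in OCI-AML3 than in AML5, with 28.2 and 47.0 calls per CpG. The SOCS5 coding sequence was at 95.8% and 96.5%, and none of its 34 CpGs passed the test.

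SOCS6 and SOCS7, the other pair with long amino-terminal regions, act on insulin and growth factor receptor signals. The SOCS6 promoter mean was 11.7% in OCI-AML3 and 12.5% in AML5 over 243 CpGs, of which 7 were lower and 0 higher. Its pooled shares were farther apart, 7.66% (7.15 to 8.19) and 12.2% (11.5 to 12.9). The difference was largest from 1000 to 501 bp upstream, where the mean was 9.59% in OCI-AML3 and 23.5% in AML5 with 4 CpGs lower. The SOCS6 body was at 90.9% and 93.0% over 360 CpGs, with 14 lower and 8 higher, the smallest body difference in the family. SOCS6 had no run in either direction.

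The SOCS7 promoter mean was 11.7% in OCI-AML3 and 12.2% in AML5 over 189 CpGs, of which 3 were lower and 0 higher, with pooled shares of 10.9% (10.3 to 11.6) and 13.3% (12.5 to 14.1). Its body was at 89.99% and 93.7% over 584 CpGs, with 27 lower and 1 higher. Of the 27, 11 formed a run in intron 7, chr17:36538416-36538956, with shares of 25.2% (19.1 to 32.4) in OCI-AML3 and 93.8% (90.9 to 95.8) in AML5. At chr17:36538603, 2 of 20 calls were methylated in OCI-AML3 and 42 of 43 in AML5 (adjusted P = 7.47e-11, Fisher's exact test). This run rests on the lowest depth of all in OCI-AML3, 14.5 calls per CpG against 33.8 in AML5.

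Over the 7 gene bodies, 173 of 1951 CpGs tested were lower (8.87%, against 13.0% over all gene bodies) and 16 were higher (0.820%, against 3.02%). In 6 of the 7 the mean was lower in OCI-AML3, as in 92.9% of all gene bodies, whose median difference was −4.93 points. SOCS2 and SOCS3 were beyond the lower quartile of −10.0 points over all gene bodies, and the other 5 were above it. In all there were 12 runs in 5 of the 8 genes, 8 of them lower and 4 higher in OCI-AML3, and the higher ones lay in SOCS1 and SOCS3.

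The width of the unmethylated stretch around each TSS did not move one way. It was measured outward from the TSS to the first 2 neighbouring CpGs with a level of at least 50%. It was wider in OCI-AML3 in 4 of the 8 genes, but in 6 of the 8 with the very deep CpGs left out or at a level of 80%. At the level of 50% it was wider in 72.8% of the 12738 protein-coding genes that have such a stretch in both lines. The family's share beside this value therefore depends on the setting. In SOCS2 the width was 3307 bp in OCI-AML3 and 2882 bp in AML5, and in SOCS4 it was 2600 and 2274 bp. In SOCS3 it was 1846 and 1965 bp, and it ended 620 bp downstream of the TSS in OCI-AML3, in intron 1, and 975 bp downstream in AML5. In SOCS5 it was 1923 and 3070 bp, but that difference depends on a single CpG 2424 bp downstream and a stretch without tested CpGs.

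Matches to the GAS letters TTCNNNGAA, a palindrome that reads alike on both strands, were counted in the reference sequence. In the 250 bases upstream of the TSS, CISH had 4, SOCS3 had 1 and the other 6 genes had 0, and 6.001% of all 20163 promoters had at least 1. Within 2000 bp of the TSS 7 of the 8 genes had a match, as did 66.2% of all promoters. The mean methylation level of the CpGs within 100 bp of the CISH matches upstream of the TSS was at most 0.0781% in OCI-AML3 and 0% in AML5 for the 4 nearest. Around the SOCS3 match 64 bp upstream it was 0.185% and 0.111%. The STAT-type letters nearest to these starts therefore lay in unmethylated DNA in both lines.

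Of the 19 matches in the family, 3 contain a CpG. The CISH match 112 bp upstream, TTCCGGGAA, had a CpG with a level of 1.64% of 61 calls in OCI-AML3 and 0% of 59 in AML5. The SOCS3 match in intron 1, TTCCCGGAA 469 bp downstream, had 9.76% of 41 calls and 0% of 14. The SOCS7 match TTCTCGGAA, 1012 bp downstream, was at 0% in both lines. Around the only match of the SOCS4 window, 1070 bp upstream, the mean over 6 CpGs was 33.5% in OCI-AML3 and 70.4% in AML5, with 4 CpGs lower. A match of these letters is a description of the sequence and does not show that a STAT protein binds there.

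The other genes of the pathway were taken from a list of 47, with receptors, kinases, STATs, other negative regulators and the ligase partners of the SOCS box. Of their promoters 42 were lower in OCI-AML3, while over all promoters 84.7% were lower. The median difference was −3.18 points, against −0.829 in the SOCS family and −4.68 over all promoters. Lower by over 20 points were 3 of the 47 (6.38%, against 8.61% over all promoters), and 1 was higher by that much (2.13%, against 1.79%), shares near those of all promoters. All 4 were receptors, the role with most genes in the list. EPOR, the erythropoietin receptor, was at 22.97% in OCI-AML3 and 57.1% in AML5, and OSMR, the oncostatin M receptor, at 35.9% and 58.3%. LIFR, the leukemia inhibitory factor receptor, was at 63.9% and 40.1%, over 21 CpGs. Depth in OCI-AML3 and AML5 was 104 and 37.1 calls per CpG in OSMR and 53 and 27.5 in LIFR. In EPOR it was 49.2 and 54.9, and the part of depth in these results was not tested.

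By role, the receptors had the largest median difference, −6.93 points over 22 promoters, of which 20 were lower. The 4 ligase partners were all lower with a median of −3.55 points, and the 10 other negative regulators were all lower with a median of −2.19. Over all promoters 84.7% were lower with a median of −4.68 points, a larger decrease than in either of these groups. Of the 4 JAK kinases 3 were lower, and of the 7 STAT genes 5 were lower. The 2 that were not, STAT5A and STAT5B, were at 35.9% and 34.0% in OCI-AML3 and at 29.97% and 28.4% in AML5. They lie next to each other and their promoter windows overlap, so that these are not independent values.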

How the data were processed

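The authors made whole-genome bisulfite libraries from 2 AML cell lines, 1 each, with paired-end reads aligned to hg19 (GRCh37) and methylation called with Bismark. The submitters' processing notes also name Bowtie 0.12.8. For every CpG the deposited tables hold 2 raw counts, of methylated and of unmethylated calls, without smoothing. Removal of duplicate reads is not given in the sources used here, and duplicates would narrow intervals and P-values. Which column held methylated calls was read from mitochondrial DNA, nearly unmethylated in both lines (0.168% in OCI-AML3 and 0.101% in AML5).

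From the counts, levels were averaged over CpGs with more than 5 reads in both lines, in promoters within 2000 bp of the most upstream TSS and in gene bodies outside that window (GENCODE release 44 lifted to GRCh37). Regions entered comparisons over all genes with at least 10 CpGs, and a region was called at a difference over 20 percentage points. At the median depths of 27 and 30 calls, 3 methylated calls are a share of 11.1% (OCI-AML3) and 10.0% (AML5). Calls were compared by a two-sided Fisher's exact test with Benjamini–Hochberg adjustment at 0.05, tested on simulated data first. Python 3.11.15 was used with pysam 0.24.0, numpy 2.4.6, numba 0.67.0, scipy 1.17.1, matplotlib 3.10.9 and pandas 2.3.3.

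The members and the JAK-STAT list were chosen with earlier results of these data known. The rule for names took all 8 members, the JAK-STAT promoters with the 3 largest decreases and the 3 largest increases, and up to 2 runs per gene and direction, those with most CpGs. 1 promoter that the rule names and 1 sequence are not reported here. The SOCS2 run at the canonical start, the unmethylated widths and the GAS matches were chosen after their values were seen. Alternatives covered the minimum reads, very deep CpGs, window, TSS, averaging, thresholds and gene body definition. Expression was not analysed here.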

Additional observations from a re-analysis of the deposited data

How the results depend on the processing

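No paired analysis was possible because each line has 1 library. The counts of SOCS promoters lower and higher by over 20 points were 0 as reported and in all 8 alternatives run, each changed alone. These include a threshold of 10 points, and one of 30 points, where no count other than 0 was possible. Body CpGs lower stayed within 1.5 times of 173 in each alternative run. Other counts depended on the definition. Promoter CpGs lower were 67, and 31 with CpGs over 3 times the median depth left out, 16 within 1000 bp, 28 in the upstream 2000 bp only and 126 around the canonical TSS. Promoter CpGs higher were 39, and 23, 22 and 7 under the first 3 of these. Body CpGs higher were 16, and 48 over the whole gene and 9 at an adjusted P under 0.01. SOCS bodies lower by over 20 points were 1, and 0 over the whole gene, 2 at 10 points and 0 at 30 points. JAK-STAT promoters lower were 3, and 5 by the pooled share of calls, 11 at 10 points and 1 at 30 points. The SOCS3 promoter difference was −0.428 points without the deep CpGs and 3.72 within 1000 bp, and that of CISH was −0.466 by the pooled share, so that these directions were not stable. The SOCS2 promoter difference was −10.5 around the canonical TSS, past 10 points, but that TSS and that threshold were not combined in the counts. By the pooled share, those of SOCS5, SOCS6 and SOCS7 were −2.81, −4.51 and −2.31, against −0.837, −0.820 and −0.542 by the mean. Whether depth set the SOCS3 values was not tested. The alternatives for the unmethylated widths, added after seeing the data, gave 4 to 6 of 8 genes wider in OCI-AML3. With 1 library per line, variation between cultures could not be measured.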
